A study of Homo sapiens with 6 samples.

Results

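Potassium channel subunits were taken as all genes of the expression table whose symbol is KCN, 1 or more further letters and a number at the end, which gave 69 of 17039 genes. They comprise 55 pore-forming or modifier subunits and 14 auxiliary subunits, among the latter KCNAB2, a beta subunit of voltage-gated channels. Poly(A) RNA of 2 human breast cancer cell lines was sequenced, with 3 libraries of each. MDA-MB-231 is a triple-negative breast cancer line, obtained from a cell bank and grown in DMEM with 10% fetal bovine serum and antibiotics. 231-BR is a brain-seeking derivative of it that was received as a gift and kept in the same medium with 200 µg/mL of the selection drug G418 added. Each group is therefore 1 cultured line, and the cell line, its source and G418 cannot be told apart in the comparison. The labels call the libraries of a line independent samples, but do not say whether they came from separate cultures, so that p-values measure only the spread between these samples, which may be technical. In 1 label field the number in the name of the line rises by 1 with each replicate, and the titles, which give the lines without it, were followed.

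Potassium channels let potassium ions pass the membrane and thereby set the resting potential, shape electrical signals in excitable cells and help control volume and calcium entry in other cells. Pore-forming subunits open with voltage, with calcium, or constitutively, as tandem-pore and inward rectifier channels do, and auxiliary subunits bind to them and change their gating or their transport to the membrane. Kv beta subunits are cytoplasmic proteins related to aldo-keto reductases that bind Kv channels of the Shaker family. In breast cancer cells, the calcium-activated channel encoded by KCNN4 is a well-known source of potassium current.

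RefSeq lists a start region for 51 of the 69 genes, with 82 windows in all, each of 250 bases before and 50 after an annotated start. The stretches below are the parts of such windows, on GRCh38.p14, that lie outside the exons annotated in GENCODE 29. They are shown for subunits that differed strongly between the lines, KCNN3 as a decrease and the others as increases, and where a gene had several such stretches, the one with most CG is given. CG dinucleotides, where DNA methylation takes place, are in capitals. Gene-level values do not say which of the starts of a gene was used in these cells.
KCNAB2 chr1:6045638-6045887 (+ strand): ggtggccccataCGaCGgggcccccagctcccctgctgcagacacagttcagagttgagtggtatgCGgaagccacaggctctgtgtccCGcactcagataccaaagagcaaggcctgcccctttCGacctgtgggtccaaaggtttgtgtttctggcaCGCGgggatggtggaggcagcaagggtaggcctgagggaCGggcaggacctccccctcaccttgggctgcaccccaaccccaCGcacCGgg
KCNK2 chr1:215082487-215082736 (+ strand): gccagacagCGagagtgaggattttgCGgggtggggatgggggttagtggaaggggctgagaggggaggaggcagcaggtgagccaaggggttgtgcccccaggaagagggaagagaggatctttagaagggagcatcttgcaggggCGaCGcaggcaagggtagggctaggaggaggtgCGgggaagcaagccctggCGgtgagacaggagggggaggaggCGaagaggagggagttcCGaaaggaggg
KCNN2 chr5:114361820-114361963 (+ strand): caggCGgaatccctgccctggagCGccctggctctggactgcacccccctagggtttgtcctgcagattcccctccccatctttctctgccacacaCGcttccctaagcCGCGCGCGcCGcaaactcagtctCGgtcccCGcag
KCNIP3 chr2:95346408-95346657 (+ strand): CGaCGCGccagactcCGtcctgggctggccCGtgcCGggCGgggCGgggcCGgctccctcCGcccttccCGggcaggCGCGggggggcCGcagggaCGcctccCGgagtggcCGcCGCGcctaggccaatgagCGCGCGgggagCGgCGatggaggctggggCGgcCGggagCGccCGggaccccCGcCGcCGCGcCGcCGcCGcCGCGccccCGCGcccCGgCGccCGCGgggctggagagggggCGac
KCNK1 chr1:233613856-233614003 (+ strand): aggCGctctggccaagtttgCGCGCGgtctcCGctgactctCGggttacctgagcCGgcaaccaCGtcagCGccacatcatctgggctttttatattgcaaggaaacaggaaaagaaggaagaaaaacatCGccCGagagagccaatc
KCNN3 chr1:154870282-154870531 (- strand): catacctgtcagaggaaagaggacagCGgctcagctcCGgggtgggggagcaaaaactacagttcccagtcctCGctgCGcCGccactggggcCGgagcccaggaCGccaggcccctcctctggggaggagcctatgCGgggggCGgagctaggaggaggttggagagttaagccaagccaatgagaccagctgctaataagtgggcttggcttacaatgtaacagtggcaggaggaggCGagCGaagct

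The 250 bases of KCNAB2 hold 10 CG and those of KCNK2 hold 8, whereas the 250 bases of KCNIP3 hold 44. KCNN3, with the largest decrease of the tested subunits, has 11 CG in 250 bases. Over whole windows of 300 bases, the median number of CG was 14.0 among all 35116 windows of RefSeq, and 0.604% of them reached the 53 of KCNIP3. KCNAB2 has 4 windows, with 31, 18, 11 and 12 CG, the last of which is the one shown. Its window with 31 CG, chr1:5992426-5992725, also holds CCAAT, read on both strands, 4 times, a number that 0.991% of all windows reach, while 34.6% of all windows hold it at least once. The highest CG count per gene had a median of 27.5 among the 10 genes with a mean of at least 1 FPKM in either line and a listed window, of 16 among 17 further tested genes, and of 31 among 24 genes too low to test. It was 16 among all 27305 genes with a window.

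Expression was given as FPKM, fragments per kilobase of transcript normalized to the mapped fragments of a library, which is scaled by length, so that levels of different genes can be set side by side. The tables hold no read counts, and the depth of the libraries is unknown. The summed FPKM was 465020 to 472007 in 231-BR and 486937 to 496420 in MDA-MB-231 libraries. Across 11124 genes, log2 values correlated at 0.997 or more within a line and at 0.902 or less between the lines. The mesenchymal-type markers VIM, CD44, AXL and CAV1 were between 159.93 and 2565.71 FPKM in every library, ESR1 was at 0.74 to 1.08, ERBB2 at 4.75 to 10.23 and EPCAM at 4.44 to 9.31, whereas CDH1, PGR, the glial genes GFAP and AQP4 and the leukocyte genes PTPRC and CD3E were at most 0.07. Of the other markers of neural, glial and white blood cells, RBFOX3, SNAP25 and SYP were at most 0.26, but MBP reached 20.64 to 21.21 in 231-BR and 12.81 to 14.26 in MDA-MB-231, and CD68 reached 80.56 to 84.18 and 61.93 to 64.74.

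Most of the 69 subunits were low in both lines. A mean of at least 1 FPKM in either line was reached by 11 subunits, 15.9% of them against 67.0% of all genes. Of these, 7 reached it in both lines (KCNAB2, KCNN4, KCNQ5, KCNIP3, KCNK1, KCNS3 and KCNC4), 3 in 231-BR only (KCNQ3, KCNN2 and KCNK2) and 1 in MDA-MB-231 only (KCNMB3). Another 31 never exceeded 0.1 FPKM in any library. The lines were compared on log2(FPKM + 0.1), with limma and Benjamini-Hochberg adjustment over the 13465 genes with a mean of at least 0.1 FPKM, and each fold change is given for 231-BR relative to MDA-MB-231, on a scale that understates it for low genes. Of the subunits, 31 (44.9%, against 79.0% of all genes) passed this limit, and the 38 others, at 0.21 FPKM or less in each library, were not tested. KCNJ4, with a mean of 0.1, was just above the limit and KCNK7, with 0.09, just below it.

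Among the 31 tested subunits, 16 were higher in 231-BR and 10 lower at an adjusted p under 0.05, and 5 did not pass. That is 83.9%, beside 77.3% of all genes tested, with 44.4% of all genes higher and 32.9% lower. When the log2 fold change also had to exceed 1 in size, 10 were higher and 4 lower, which is 45.2% against 15.2% of all genes tested, of which 10.9% were higher and 4.34% lower. A mean below 0.1 FPKM in one of the lines was found for 10 of the 31, which could pass the limit only through the other line. KCNK2, KCNF1, KCNJ15, KCNJ4, KCNH1 and KCNN3 are among these and also among those with a change over 1, which the limit itself favoured. A mean under 1 FPKM in both lines was found for 20 of the 31, and the share of all genes tested is not matched for level. No 231-BR library fell within the range of MDA-MB-231, or the reverse, for 26 of the 31 (83.9%), beside 78.4% of all genes tested. The median log2 fold change was 0.26, beside 0.08 over all genes tested. It was 0.01 without 231-BR replicate 3, 0.13 without 231-BR replicate 1 and -0.07 after quantile normalization. Quantile normalization shifted the median of all genes to -0.06 and gave 12 subunits higher and 14 lower. In that setting 78.5% of all genes passed the test. The criteria for a differentially expressed gene (DEG) asked for a change beyond 1 in log2 units, an adjusted p under 0.05 and at least 1 FPKM on average in each line. KCNAB2, KCNIP3, KCNK1 and KCNS3 met them as increases, beside 4.68% of all genes tested. No subunit met them as a decrease in the limma fit, 0 also with an unadjusted p under 0.05, beside 1.77% of all genes tested. Only 7 of the 31 averaged at least 1 FPKM in both lines, so that the others could not meet the criteria in either direction. With so few, the absence of a decrease says little.

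**Figure D1:**
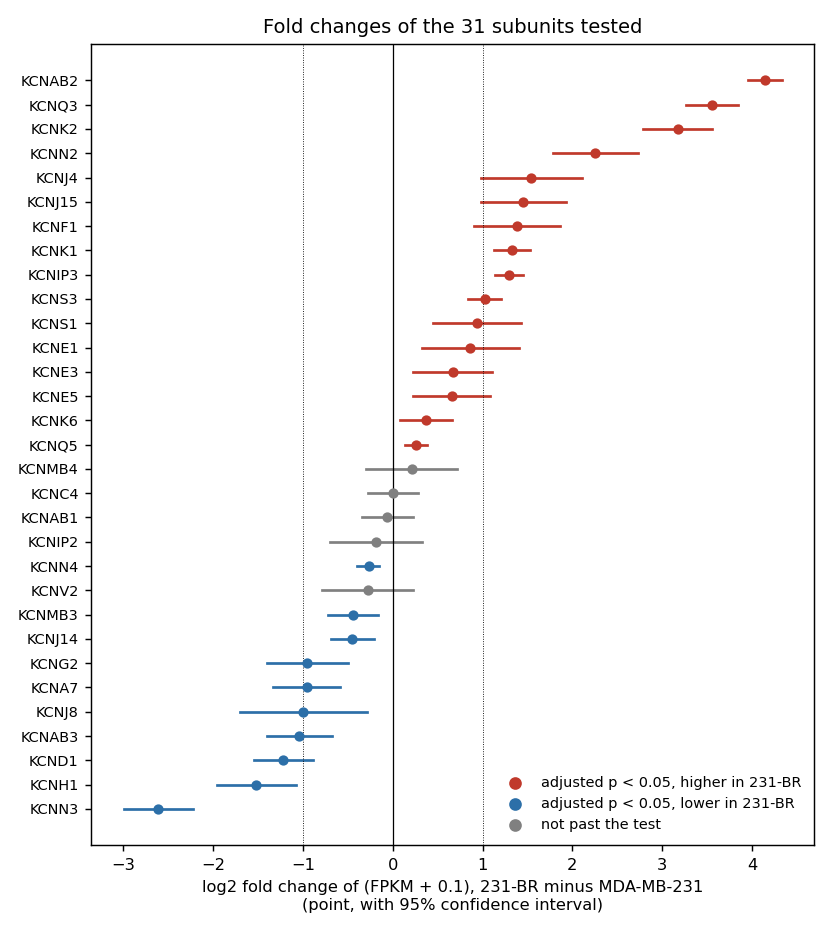
Log2 fold change of FPKM + 0.1, 231-BR minus MDA-MB-231, for the 31 tested subunits, with the point as the limma estimate, the bar as its 95% confidence interval and dotted lines at an absolute value of 1. KCNAB2, KCNQ3, KCNK2 and KCNN2 lie highest, between 4.15 and 2.25, and KCNN3 lies lowest at -2.61.

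KCNAB2 (gene ID 8514) was the most abundant subunit in 231-BR and had the largest log2 fold change of FPKM + 0.1 among the 31 tested. In 231-BR its FPKM was 44.12, 43.47 and 45.02, and in MDA-MB-231 it was 2.34, 2.11 and 2.81. Every 231-BR library was far above every MDA-MB-231 library, with means of 44.2 ± 0.778 and 2.42 ± 0.357 (SD, n = 3). The ratio of the means was 18.3, and the log2 fold change was 4.15 (SE 0.084, 95% confidence interval 3.96 to 4.33, limma adjusted p = 7.5e-11). It stayed between 4.06 and 4.25 when any 1 library was left out. The order at the top depends on the scale, since the ratio of the means was 32.9 for KCNK2, and a pseudocount of 0.01 gave 4.79 for KCNK2 and 4.30 for KCNJ4, both above KCNAB2. KCNAB2 ranked number 94 of the 13465 genes by fold change and number 5 among the increases that met the DEG criteria. The gene lies at chr1:5991466-6101193 on the plus strand of GRCh38 and has 17 annotated transcript starts. Its exons overlap those of NPHP4, a ciliary gene on the opposite strand, which had 2.81 FPKM in 231-BR and 1.97 in MDA-MB-231, with a log2 fold change of 0.49 (limma adjusted p = 1.1e-04). Whether the counting used strand is not given in the sources used here. In MDA-MB-231 the levels of NPHP4 and KCNAB2 were close, and the part of shared reads in either value was not tested.

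The other Kv beta genes did not share this increase. KCNAB1, whose product gives rapid inactivation to some Kv channels, was at 0.63, 0.58 and 0.70 FPKM in 231-BR and at 0.60, 0.67 and 0.73 in MDA-MB-231. These libraries overlapped, and its log2 fold change was -0.06 (SE 0.125, 95% confidence interval -0.34 to 0.22, limma adjusted p = 0.69), though after quantile normalization it was -0.51 (adjusted p = 0.0035). KCNAB3 was at 0.23, 0.36 and 0.33 FPKM in 231-BR and at 0.75, 0.64 and 0.80 in MDA-MB-231. All 231-BR libraries were the lower ones, and KCNAB3 fell by 1.04 on the log2 scale (SE 0.162, limma adjusted p = 1.9e-04), or by 0.41 with a pseudocount of 1. KCNAB3 thus moved against KCNAB2, and the ratio of KCNAB3 to KCNAB1 was 0.365 to 0.621 in 231-BR and 0.955 to 1.25 in MDA-MB-231 libraries.

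**Figure D2:**
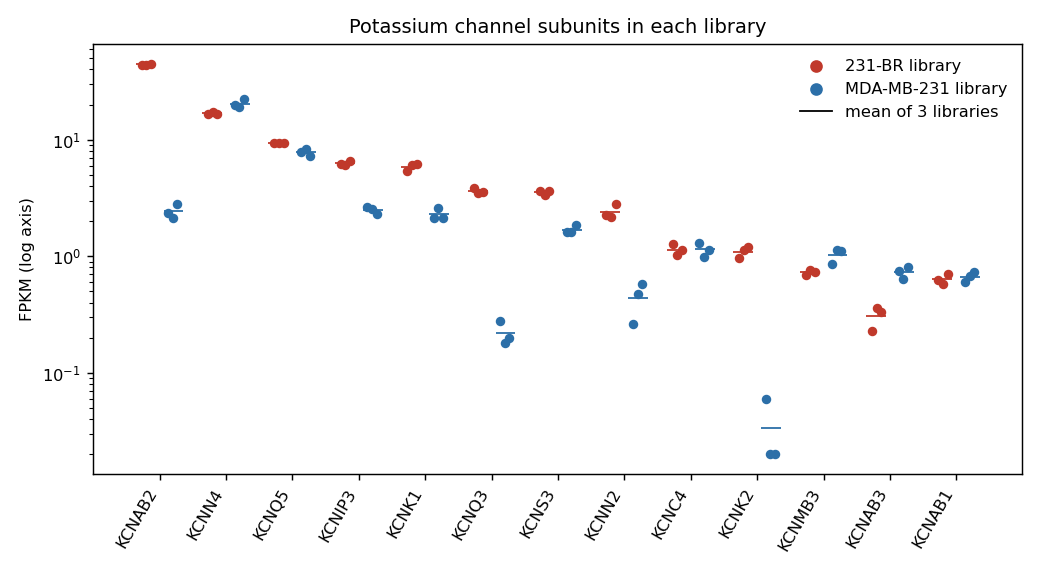
FPKM in each library, on a log axis, of the subunits with a mean of at least 1 FPKM in either line and of the 3 Kv beta subunits, with a line at the mean of 3 libraries. The 231-BR libraries of KCNAB2 sit between 43.47 and 45.02, above the 2.11 to 2.81 of MDA-MB-231, while KCNC4 and KCNAB1 overlap between the lines.

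Kv alpha subunits are taken here as the Shaker, Shab, Shaw and Shal families of voltage-gated pores that Kv beta subunits can bind. KCNQ and KCNH channels and modifier subunits are counted separately below. The Kv alpha subunits so defined were few and low. Of 8 in the table, KCNC4, a channel of the Shaw family, alone reached 1 FPKM. It was at 1.27, 1.03 and 1.12 in 231-BR and at 1.31, 0.99 and 1.13 in MDA-MB-231, so that the libraries overlapped and the log2 fold change was 0.00 (95% confidence interval -0.28 to 0.28, limma adjusted p = 1), or -0.42 (adjusted p = 0.0091) after quantile normalization. KCND1, a Shal channel of the A-type current, was at 0.19, 0.27 and 0.20 FPKM in 231-BR and at 0.66, 0.62 and 0.64 in MDA-MB-231. It was lower in each 231-BR library and fell by 1.22 on the log2 scale (SE 0.147, limma adjusted p = 2.9e-05), or by 0.43 with a pseudocount of 1. KCNA7, a Shaker channel, fell from 0.283 ± 0.0252 to 0.0967 ± 0.00577 FPKM (SD, n = 3), with a log2 fold change of -0.96 (limma adjusted p = 3.9e-04). KCNA4, KCNA6, KCNC1 and KCND3 were at 0.13 FPKM or less in every library and were not tested. Summed, the Kv alpha subunits had 1.56 ± 0.122 FPKM in 231-BR and 2.19 ± 0.186 in MDA-MB-231 (SD, n = 3), against 45.1 ± 0.833 and 3.82 ± 0.473 for the Kv beta subunits. Of the 3 tested Kv alpha subunits, 0 rose by limma and 2 fell, beside 44.4% and 32.9% of all genes tested. KCNQ3 and KCNQ5, not counted among these, were higher in 231-BR, and KCNH1 was lower.

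Modifier subunits do not form channels alone but join other Kv channels. KCNS3, the most abundant of 8 in the table, was at 3.66, 3.35 and 3.60 FPKM in 231-BR and at 1.61, 1.60 and 1.85 in MDA-MB-231. Every 231-BR library was the higher one, and the log2 fold change was 1.03 (SE 0.081, 95% confidence interval 0.84 to 1.21, limma adjusted p = 1.1e-06). This is close to the limit of 1, and leaving out 1 library gave 0.99 to 1.09. It was 0.95 with median-of-ratios scaling, 0.76 with a pseudocount of 1 and 0.70 after quantile normalization, under each of which KCNS3 was no longer a DEG and 3 subunits were. KCNF1 was at 0.21, 0.21 and 0.23 FPKM in 231-BR and at 0.00, 0.02 and 0.05 in MDA-MB-231, with no overlap and a log2 fold change of 1.38 (limma adjusted p = 1.9e-04). It was 0.25 with a pseudocount of 1 and 3.11 with 0.01, since the MDA-MB-231 values were close to 0. KCNS1 rose from 0.10 ± 0.0400 to 0.283 ± 0.0757 FPKM (SD, n = 3, log2 fold change 0.94, limma adjusted p = 0.0029), and KCNG2 fell from 0.283 ± 0.0351 to 0.10 ± 0.0400 (log2 fold change -0.95, limma adjusted p = 0.0015). KCNV2 overlapped between the lines, with a log2 fold change of -0.28 (limma adjusted p = 0.28) that passed only after quantile normalization, at -0.61 (adjusted p = 0.035). KCNG3, KCNS2 and KCNV1 were at 0.03 FPKM or less and were not tested.

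KCNQ channels carry the slow M-current that damps firing in neurons, and KCNQ3 and KCNQ5 can form mixed channels. KCNQ5 was the third most abundant subunit in 231-BR, at 9.39, 9.45 and 9.36 FPKM, and the second in MDA-MB-231, at 7.87, 8.34 and 7.26. Its libraries did not overlap, and the difference was small, with a log2 fold change of 0.26 (SE 0.054, limma adjusted p = 0.0012) that moved to 0.13 after quantile normalization. KCNQ3 was at 3.81, 3.51 and 3.54 FPKM in 231-BR and at 0.28, 0.18 and 0.20 in MDA-MB-231. The 231-BR libraries were all far higher, with means of 3.62 ± 0.165 and 0.220 ± 0.0529 (SD, n = 3), a ratio of 16.5 and a log2 fold change of 3.55 (SE 0.129, 95% confidence interval 3.26 to 3.84, limma adjusted p = 4.3e-09). With a pseudocount of 1 the fold change was 1.92. KCNQ5 exceeded KCNQ3 by 28.1 to 46.3 times in the MDA-MB-231 libraries and by 2.46 to 2.69 times in the 231-BR libraries. KCNQ1 was at 0.03 FPKM or less in each library.

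Tandem-pore channels give the background potassium conductance. KCNK1 (TWIK) was at 5.40, 6.10 and 6.14 FPKM in 231-BR and at 2.12, 2.60 and 2.13 in MDA-MB-231. Each 231-BR library was the higher one, and the log2 fold change was 1.33 (SE 0.090, 95% confidence interval 1.13 to 1.53, limma adjusted p = 3.6e-07). KCNK2 (TREK), which opens with stretch and with fatty acids, was at 0.97, 1.13 and 1.19 FPKM in 231-BR and at 0.06, 0.02 and 0.02 in MDA-MB-231. It was near 0 in all MDA-MB-231 libraries and near 1 in all 231-BR libraries, with a log2 fold change of 3.18 (SE 0.173, 95% confidence interval 2.79 to 3.56, limma adjusted p = 7.3e-08). The size of this difference rests on values close to 0, and it was 1.02 with a pseudocount of 1 and 4.79 with 0.01. KCNK6 had 0.623 ± 0.0513 FPKM in 231-BR and 0.460 ± 0.05 in MDA-MB-231 (SD, n = 3), with a log2 fold change of 0.37 (limma adjusted p = 0.025) that turned to -0.07 after quantile normalization. It no longer passed with median-of-ratios scaling (0.30, adjusted p = 0.057), without 231-BR replicate 1 (0.32, adjusted p = 0.083) or without MDA-MB-231 replicate 2 (0.31, adjusted p = 0.082). KCNK3, KCNK4, KCNK5, KCNK7, KCNK9, KCNK12 and KCNK15 were at 0.21 FPKM or less in each library and were not tested.

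Calcium-activated channels of small and intermediate conductance showed opposite changes. KCNN4, the intermediate-conductance channel, was the most abundant subunit in MDA-MB-231, at 19.79, 19.09 and 22.33 FPKM, and the second in 231-BR, at 16.45, 17.43 and 16.70. The libraries did not overlap, and KCNN4 fell by 0.27 on the log2 scale (SE 0.055, 95% confidence interval -0.40 to -0.15, limma adjusted p = 0.0012). KCNN2, a small-conductance channel, was at 2.24, 2.15 and 2.78 FPKM in 231-BR and at 0.26, 0.47 and 0.58 in MDA-MB-231. All 231-BR libraries were higher, and the log2 fold change was 2.25 (SE 0.211, 95% confidence interval 1.78 to 2.73, limma adjusted p = 4.2e-06), or 1.24 with a pseudocount of 1. KCNN3, another small-conductance channel, was at 0.01, 0.00 and 0.01 FPKM in 231-BR and at 0.58, 0.49 and 0.58 in MDA-MB-231. It was near 0 in each 231-BR library and fell by 2.61 on the log2 scale (SE 0.172, 95% confidence interval -2.99 to -2.22, limma adjusted p = 3.0e-07), with -0.62 at a pseudocount of 1 and -5.14 at 0.01. In the MDA-MB-231 libraries the ratio of KCNN2 to KCNN3 was 0.448, 0.959 and 1.00, whereas in 231-BR KCNN2 was above 2 FPKM and KCNN3 at most at 0.01. KCNN1 and the large-conductance or related channels KCNMA1, KCNT2 and KCNU1 were at 0.09 FPKM or less in every library.

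Inward rectifiers pass potassium more readily into the cell than out of it and include the pores of ATP-sensitive channels. None of the 12 in the table reached 1 FPKM in a library. KCNJ14, the most abundant, was at 0.603 ± 0.00577 FPKM in 231-BR and at 0.860 ± 0.0361 in MDA-MB-231 (SD, n = 3) and fell by 0.45 on the log2 scale (limma adjusted p = 0.0031), and its exons overlap on the same strand those of GRWD1, at 37.3 ± 0.588 and 34.7 ± 0.660 FPKM. KCNJ15 was at 0.19, 0.23 and 0.23 FPKM in 231-BR and at 0.00, 0.01 and 0.04 in MDA-MB-231, with a log2 fold change of 1.45 (limma adjusted p = 1.2e-04). KCNJ4 was at 0.11, 0.21 and 0.28 FPKM in 231-BR and listed at 0 throughout MDA-MB-231, and its log2 fold change of 1.54 (limma adjusted p = 2.8e-04) depends on the pseudocount. Both lay above MDA-MB-231 in each 231-BR library, at levels that 2 decimals describe poorly, and a pseudocount of 1 gave 0.26 for either gene. KCNJ8, a pore of ATP-sensitive channels, was at 0.09, 0.02 and 0.17 FPKM in 231-BR and at 0.41, 0.21 and 0.21 in MDA-MB-231. It did not overlap and fell by 1.00 on the log2 scale (limma adjusted p = 0.015), but it did not pass without 231-BR replicate 2 (-0.69, adjusted p = 0.053) or without MDA-MB-231 replicate 1 (-0.76, adjusted p = 0.065). The 8 others were at 0.13 FPKM or less in every library and were not tested, among them KCNJ11, the other ATP-sensitive pore. KCNJ12 and KCNJ18 are near-identical copies, and their values are uncertain.

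KCNH channels include ether-a-go-go channels, which have been linked to cell proliferation. KCNH1, their first member, was at 0.01, 0.03 and 0.05 FPKM in 231-BR and at 0.28, 0.25 and 0.28 in MDA-MB-231. It was the lower one in all 231-BR libraries and fell by 1.52 on the log2 scale (SE 0.197, limma adjusted p = 4.9e-05), or by 0.30 with a pseudocount of 1 with -2.94 at 0.01. The other 5 KCNH genes were at 0.03 FPKM or less, among them KCNH2, the cardiac hERG channel.

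**Figure D3:**
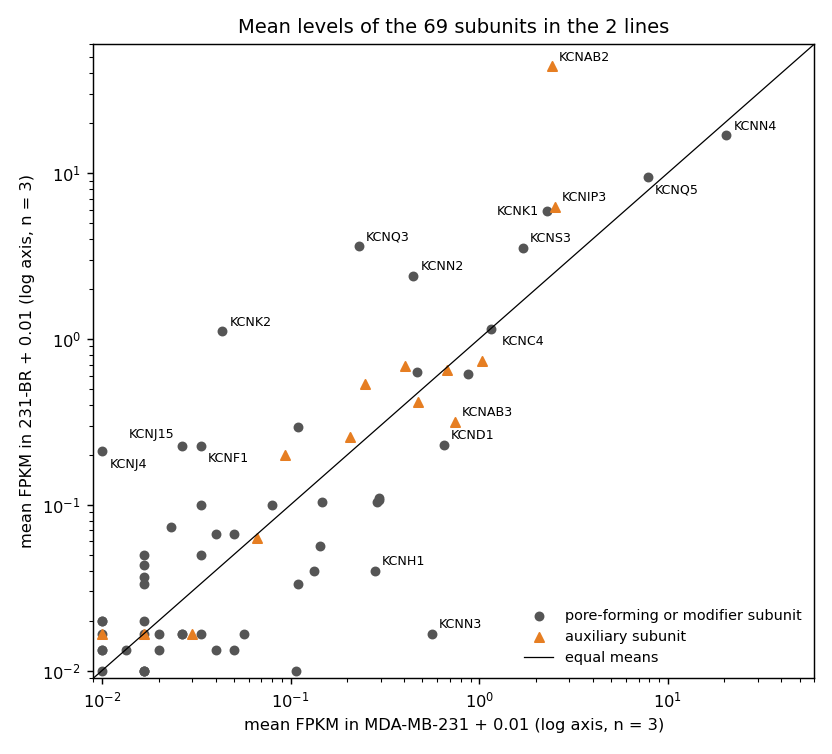
Mean FPKM + 0.01 of the 69 subunits in MDA-MB-231 (x axis) and 231-BR (y axis), both on log axes, with n = 3 libraries each, triangles for auxiliary subunits and a line at equal means. KCNAB2 lies farthest above the line among the abundant subunits, KCNQ3, KCNK2 and KCNN2 lie above it from low levels in MDA-MB-231, and KCNN3 lies below it.

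Of the 14 auxiliary subunits, Kv beta included, 10 were tested, of which 5 were higher in 231-BR, 2 lower and 3 not past the test, which is 70% beside 77.3% of all genes tested. KCNIP3, a calcium-binding protein also known as DREAM or calsenilin that binds Shal channels, was at 6.18, 6.09 and 6.51 FPKM in 231-BR and at 2.65, 2.55 and 2.30 in MDA-MB-231. The 231-BR libraries were all higher, the log2 fold change was 1.29 (SE 0.068, 95% confidence interval 1.14 to 1.45, limma adjusted p = 5.7e-08), and the start region shown for it is the one richest in CG. KCNIP2, a related protein, overlapped between the lines, with a log2 fold change of -0.19 (limma adjusted p = 0.47) that passed only after quantile normalization, at -0.61 (adjusted p = 0.031), and KCNIP1 and KCNIP4 were at 0.04 FPKM or less. KCND1 and KCND3, the Shal channels in the table, were at 0.66 FPKM or less in every library.

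KCNE subunits are small membrane proteins that slow or stabilise KCNQ and other Kv channels, and 3 of the 5 were tested. KCNE5 had 0.673 ± 0.125 FPKM in 231-BR and 0.393 ± 0.105 in MDA-MB-231 (SD, n = 3), with a log2 fold change of 0.66 (limma adjusted p = 0.0092). KCNE1 had 0.527 ± 0.214 and 0.237 ± 0.0651 FPKM, with a log2 fold change of 0.86 (limma adjusted p = 0.0083), and KCNE3 had 0.190 ± 0.0265 and 0.0833 ± 0.0252, with 0.67 (limma adjusted p = 0.01). These rose by limma, but none passed after quantile normalization, with adjusted p-values of 0.33, 0.1 and 0.18 for KCNE5, KCNE1 and KCNE3. Exons of KCNE5 overlap those of ACSL4 on the same strand, which rose from 37.4 ± 1.03 to 84.5 ± 1.97 FPKM (log2 fold change 1.17, limma adjusted p = 3.1e-10), and reads of the 2 genes may not have been separated. KCNE1 has a near-identical copy, KCNE1B, at 0.150 ± 0.0656 and 0.0767 ± 0.0379 FPKM, and its value is uncertain as well. KCNE2 and KCNE4 were at 0.11 FPKM or less.

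Beta subunits of the large-conductance calcium-activated channel (BK) were present although its pore, KCNMA1, was at 0.09 FPKM or less. KCNMB3 was at 0.69, 0.76 and 0.73 FPKM in 231-BR and at 0.85, 1.13 and 1.10 in MDA-MB-231. The 231-BR libraries were the lower ones, and KCNMB3 fell by 0.44 on the log2 scale (SE 0.126, limma adjusted p = 0.0093). Its exons overlap those of PIK3CA on the opposite strand, which moved the other way, from 6.99 ± 0.780 to 11.0 ± 1.02 FPKM. KCNMB4 overlapped between the lines, with a log2 fold change of 0.21 (95% confidence interval -0.30 to 0.71, limma adjusted p = 0.43), which was -0.13 after quantile normalization.

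The composition of the subunit RNA differed between the lines mostly through KCNAB2. The FPKM of the 69 subunits summed to 100.70, 101.29 and 103.03 in 231-BR and to 46.49, 46.64 and 49.79 in MDA-MB-231. KCNAB2 made up 42.9% to 43.8% of this sum in 231-BR and 4.52% to 5.64% in MDA-MB-231, and KCNN4 made up 16.2% to 17.2% and 40.9% to 44.8%. The ratio of the mean sums was 2.13 with KCNAB2 and 1.27 without it (57.5 ± 0.777 against 45.2 ± 1.54 FPKM, SD, n = 3). Auxiliary subunits together had 54.2 ± 0.661 FPKM in 231-BR and 8.80 ± 0.539 in MDA-MB-231, and pore-forming and modifier subunits had 47.4 ± 0.627 and 38.8 ± 1.33. In 231-BR the RNA of auxiliary subunits thus exceeded that of pore-forming and modifier subunits, and in MDA-MB-231 it was well below. The order in 231-BR rests on KCNAB2 alone, which had a mean of 44.2 FPKM there. For such a sum the smallest p of an exact 2-sided permutation test is 0.1 with 3 libraries per line, and none was run. In these bulk samples, a change in the number of cells that express a gene and a change of RNA per cell cannot be told apart. In order of level, KCNAB2, KCNN4 and KCNQ5 led in every 231-BR library, followed by KCNIP3 and KCNK1, which changed places between libraries, as did KCNQ3 and KCNS3. In MDA-MB-231, KCNN4 and KCNQ5 led in all libraries, while KCNIP3, KCNAB2 and KCNK1 lay between 2.11 and 2.81 FPKM in an order that differed from library to library.

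**Figure D4:**
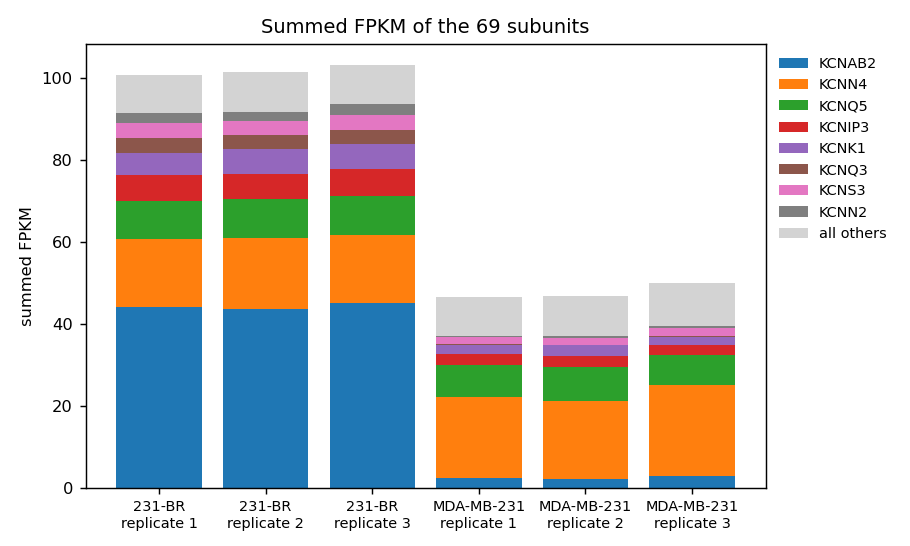
Summed FPKM of the 69 subunits in each of the 6 libraries, stacked by gene, with bars starting at 0. KCNAB2 forms 42.9% to 43.8% of the bar in the 231-BR libraries and 4.52% to 5.64% in the MDA-MB-231 libraries.

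Other genes of potassium transport were examined as a list of 36 pumps, cotransporters, their kinases and channel partners, of which 29 were in the table and 18 were tested. Of these 18, 9 were higher in 231-BR, 6 lower and 3 not past the test, which is 83.3%, beside 77.3% of all genes tested, with a median log2 fold change of 0.23. ATP1B1, a beta subunit of the sodium-potassium pump, rose from 32.5 ± 1.44 to 68.8 ± 0.905 FPKM (log2 fold change 1.08, limma adjusted p = 1.4e-09), while FXYD5, the most abundant pump regulator, fell by 0.23 on the log2 scale (limma adjusted p = 1.5e-05).

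SLC12A7, a potassium-chloride cotransporter active in volume control, rose from 0.763 ± 0.0473 to 4.06 ± 0.166 FPKM (SD, n = 3, log2 fold change 2.27, limma adjusted p = 4.4e-09). SLC12A4, the most abundant cotransporter, had 10.5 ± 0.396 and 11.2 ± 0.372 FPKM and did not pass (log2 fold change -0.09, limma adjusted p = 0.083). The kinase OXSR1, which phosphorylates these transporters, rose by a log2 fold change of 0.60 (limma adjusted p = 2.2e-08). Its relative STK39 fell by 0.46 on the log2 scale (limma adjusted p = 1.7e-04). Of the 5 tested kinases of these transporters, 2 were higher, 2 lower and 1 not past the test. That is 80% past the test, beside 77.3% of all genes tested. The lysosomal potassium channel TMEM175 fell by 0.41 (limma adjusted p = 2.7e-04). ABCC9, the sulfonylurea receptor that pairs with KCNJ8 and lies next to it on chromosome 12, rose from 3.24 ± 0.221 to 5.98 ± 0.176 FPKM (log2 fold change 0.87, limma adjusted p = 6.8e-07), opposite to KCNJ8. Voltage-gated sodium and calcium channel subunits, the families most like the potassium channels, had 26 of 31 listed genes in the table and 10 tested, of which 6 were higher in 231-BR, 0 lower by limma at an adjusted p under 0.05, and 4 not past the test, which is 60% beside 77.3% of all genes tested. Their median log2 fold change was 0.62, beside 0.26 for the potassium channel subunits, and this difference was not tested.

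Position was not used to choose the genes, and 6 of the 31 tested subunits are on chromosome 1, which are KCNAB2, KCNC4, KCNN3, KCNH1, KCNK2 and KCNK1. On GRCh38, KCNN3 lies at chr1:154697455-154870280 on the minus strand, and KCNK2 at chr1:215005775-215237093 and KCNK1 at chr1:233614004-233672512 on the plus strand. For each tested subunit, the median log2 fold change of up to 40 neighbouring genes with a mean of at least 1 FPKM was taken, 20 on either side. The neighbours of KCNAB2 had a median of 0.46, against 4.15 for the gene itself, and those of KCNK2 one of 0.43, against 3.18. KCNQ3 had the highest neighbour median of the tested subunits, 0.79, beside its own 3.55, followed by KCNE5 with 0.64 and KCNK1 with 0.59. KCNK1 and KCNE5 were thus closer to their neighbours, whereas KCNAB2, KCNQ3 and KCNK2 were well above theirs. KCNN2, with 2.25, had neighbours at 0.09, and KCNN3, with -2.61, had neighbours at -0.14. Of the 26 subunits past the test, 7 had the sign opposite to that of their neighbours, KCNJ4 (1.54 beside -0.45), KCNH1 (-1.52 beside 0.40), KCNS3, KCNS1, KCNMB3, KCNK6 and KCNQ5. These are descriptions without a test, and neighbouring genes are not independent. The share of all genes tested that lies on chromosome 1 was not determined, nor was the share with a sign opposite to their neighbours. Neither count can therefore be called high or low. In GENCODE 29, exons of 27 of the 69 subunits overlap those of another gene, and among the tested ones these are KCNAB1, KCNAB2, KCNAB3, KCNE3, KCNE5, KCNH1, KCNIP2, KCNJ4, KCNJ8, KCNJ14, KCNJ15, KCNMB3, KCNN2 and KCNQ5, whose values are uncertain to that extent.

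**Figure D5:**
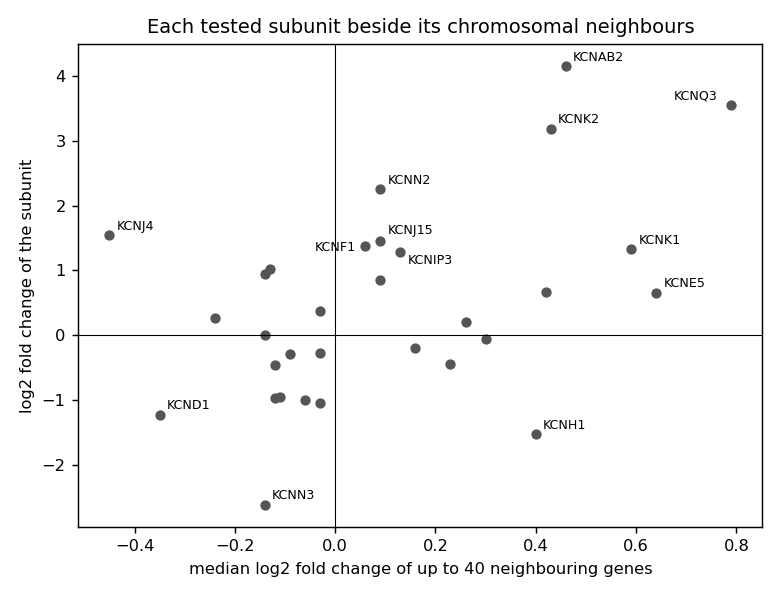
Log2 fold change of each of the 31 tested subunits (y axis) beside the median log2 fold change of up to 40 neighbouring genes (x axis), with lines at 0. KCNAB2, KCNQ3 and KCNK2 lie at 4.15, 3.55 and 3.18 with neighbour medians of 0.46, 0.79 and 0.43, and KCNJ4 and KCNH1 lie on the opposite side of 0 from their neighbours.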

How the data were processed

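RNA of 3 libraries each of 231-BR and MDA-MB-231 was enriched for poly(A), and paired reads were generated on a BGISEQ-500. The authors filtered the reads, aligned them with HISAT2 2.0.4 to the genome (GRCh38.p12 in the submitters' processing notes) and with Bowtie2 2.2.5 to a gene set, and deposited FPKM per gene with 2 decimals. The program that computed the FPKM is not given in the sources used here. The members and lists were chosen with earlier results of these data known.

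Here log2(FPKM + 0.1) was fitted with limma 3.58.1 in R 4.3.3 (lmFit, then eBayes with its trend option, 1 term for the line) for 13465 genes averaging at least 0.1 FPKM, with Benjamini-Hochberg adjustment over all of them. The fit was tested on simulated data with changes placed only in genes averaging at least 1 FPKM. That test therefore does not cover changes of subunits below this level. FPKM are no counts, so that a count test could not be used and depth is unknown. The 25 gene symbols turned into dates by a spreadsheet were restored. Subunits named with every value were those with a mean of at least 1 FPKM in either line, the Kv beta genes and those past the test with an absolute log2 fold change over 1, and up to 4 examples by level were named per role. Gene coordinates are from GENCODE 29 on GRCh38, and start regions from RefSeq on GRCh38.p14. Alternatives were pseudocounts of 1 and 0.01, quantile normalization, scaling by the median of ratios, a filter of 1 FPKM or none, no trend, a replicate term, leaving out each library, and other limits for DEGs. Python 3.11.15, pandas 2.3.3 and matplotlib 3.10.9 were used. Some genes of the table are not reported here.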

Additional observations from a re-analysis of the deposited data

How the results depend on the processing

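Depth is unknown and FPKM have 2 decimals, which limits every subunit below about 0.1 FPKM. Of the 26 subunits past the test, 21 kept their call in every setting that tested them. The exceptions were KCNE1, KCNE3, KCNE5, KCNK6 and KCNJ8, whose values stand beside their results. Some of the 21 dropped out of the test when a 231-BR library was left out. KCNJ4 did so with any of them, KCNJ15 without replicate 2 or 3 and KCNF1 without replicate 3, so that their calls were not examined there. A filter at a mean FPKM of 1 left 9 subunits, 7 of them higher and 1 lower, with a median log2 fold change of 1.29. In that setting 81% of all genes passed the test, and the median over all genes was 0.06. Without a filter 68 subunits were tested and their median was 0.02. It was 0.14 with a pseudocount of 1 and -0.07 after quantile normalization, which also gave -0.07 for KCNK6 and -0.13 for KCNMB4. The cause of the turn under quantile normalization was not tested. Subunits that met the DEG criteria as increases numbered 1 with an absolute log2 fold change over 1.5 and 7 when only the higher line had to average 1 FPKM. With 1 library left out at a time, the median ranged from 0.01 to 0.31, and 13 to 16 subunits were higher and 9 to 11 lower. Of the transport partners, 9 were then higher and 4 to 6 lower. In these settings 73.6% to 75.7% of all genes passed the test. The DEG criteria were met by 3 or 4 subunits, and the share of all genes that met them in the alternative settings was not determined. With 1 library left out, KCNAB1 lay between -0.12 and 0.00 and KCNC4 between -0.09 and 0.09, and neither passed.

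The replicate numbers give no pairing: deviations of libraries with the same number correlated at 0.015, -0.018 and -0.027. With the replicate block, 16 subunits were higher and 10 lower, the median was 0.26, KCNAB2 had a log2 fold change of 4.15, and 78% of all genes passed, against 77.3% without it.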
